A study of Saccharomyces cerevisiae with 8 samples.

Results

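The mitochondrial genome of budding yeast carries 8 protein genes, and 9 gene regions of the count files are described here: those 8 (COX1, Q0045; COX2, Q0250; COX3, Q0275; COB, Q0105; ATP6, Q0085; ATP8, Q0080; OLI1, Q0130; and VAR1, Q0140) and Q0092, a reading frame with a mitochondrial identifier and no gene name in the files. They were picked by identifier from the 6696 gene regions in each file, with earlier results of these data known, those of Q0092 included. The files hold 19 other mitochondrial reading frames, which are not members. RNA sequencing was done on W303 yeast in 4 groups with 2 biological replicates each. The groups were grr1-deficient cells after 4 h in tunicamycin, grr1-deficient cells at 0 h, wild-type (WT) cells after 4 h in tunicamycin and WT cells at 0 h. GRR1 encodes the substrate-binding F-box subunit of a ubiquitin ligase of the SCF type. Tunicamycin stops N-linked glycosylation at its start. The medium of all groups was synthetic complete with 2% glucose, the temperature was 30 °C, and the drug was given at 1 µg/ml when cultures stood at an OD600 of 0.2. The sources used here name no other allele and no method of making the grr1-deficient strain. The 4 h samples had no untreated partner here, so time in culture and drug cannot be told apart.

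Yeast mitochondria hold their own DNA, which is copied into RNA by a single-subunit RNA polymerase, Rpo41, together with its partner Mtf1. The products are core subunits of cytochrome c oxidase (Cox1, Cox2, Cox3), of the bc1 complex (cytochrome b, from COB) and of ATP synthase (Atp6, Atp8 and the ring subunit Atp9 from OLI1), and Var1, a protein of the mitochondrial ribosome. All the other subunits of these complexes come from nuclear genes, so a working respiratory chain needs both genomes. In yeast grown on glucose the nuclear genes of respiration are held low, and cells can live by fermentation.

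Initiation by Rpo41 is known at a short promoter, the letters ATATAAGTA, and these letters were looked up on the forward strand of the R64 mitochondrial genome because all 8 protein genes lie on that strand. The 4 matches nearest upstream of the members are shown with 10 flanking bases on each side and the promoter letters in capitals. They come from the RefSeq R64 sequence of the reference strain, and W303 may differ from it.
COX1 site, chrM:13339-13367: ataagtattgATATAAGTAatagatataa
COB site, chrM:34868-34896: aagaaatattATATAAGTAatatataaaa
OLI1 site, chrM:46139-46167: atacacatttATATAAGTAtatatatata
COX2 site, chrM:65374-65402: taataatgttATATAAGTAataatataat
The first of these starts 469 bases before the COX1 coding start, and ATP8 and ATP6 follow COX1 on the same strand with no nearer match. The OLI1 match starts 574 bases before the coding start, and VAR1 lies downstream of OLI1, 2752 bases from the same match. The COB match is 1662 bases from the COB start. COX2 and COX3 had no match nearer than 8374 and 13829 bases, with 13 tRNA genes between the match and COX2. Within 1000 bases upstream, 2 of the 8 genes held the letters, whereas 11.5% of all 1000-base windows of the 85779-base genome held them on the forward strand. The genome had 11 forward matches and 3 on the other strand. No other motif was searched.

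The members also differ in base composition, as the first 30 coding bases of 3 of them show, with G and C in capitals.
OLI1, chrM:46723-46752: atGCaattaGtattaGCaGCtaaatatatt
ATP8, chrM:27666-27695: atGCCaCaattaGttCCattttattttatG
VAR1, chrM:48901-48930: atGaaattaaaattattaaatataatttta
Over the whole coding sequence G+C was 33.3% in OLI1, 30.0% in COX3, 29.9% in COX1, 27.7% in COB, 26.7% in COX2 and 23.7% in ATP6. It was 19.0% in ATP8 and 10.4% in VAR1, against 17.1% for the mitochondrial genome as a whole. The 3 genes were chosen for display by their level per length, as given below. Of the 8 protein genes, OLI1 stood among the highest and ATP8 and VAR1 at the bottom.

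In the R64 annotation COX1 spans chrM:13818-26701 in 8 coding segments and COB spans chrM:36540-43647 in 6, and the reading frames of their introns share coding bases with them. The annotated COX1 coding sequence shares 972 bases with AI1, AI2, AI3, AI4 and AI5_ALPHA, and that of COB shares 756 bases with BI2, BI3 and BI4. The counted COX1 row is 169 bases shorter than its annotation, the length of the first segment, which is the one that AI1 shares. The other segments share 803 bases with AI2, AI3, AI4 and AI5_ALPHA. The other genes are single segments: ATP8 at chrM:27666-27812, ATP6 at chrM:28487-29266, OLI1 at chrM:46723-46953, VAR1 at chrM:48901-50097, COX2 at chrM:73758-74513 and COX3 at chrM:79213-80022. The 9 members share no base with each other where annotated, so their reads were summed without counting a base again. Q0092 has a countable length of 141 bases, is not in the RefSeq annotation used here and is given by identifier only.

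Gene reads ranged from 4885844 to 12380049 per library, and 0 reads in a library allows up to 3, or 0.236 to 0.560 CPM (counts scaled to library size, after TMM scaling unless another scale is named). GRR1 itself had 6 and 12 reads in grr1-deficient cells against 1794 and 1829 reads in WT cells after 4 h. At 0 h it had 2 and 3 reads in grr1-deficient cells against 1179 and 1384 reads in WT cells. Both libraries of grr1-deficient replicate 2 stand apart from the other 6 in the genes described here, so results that rest on them are given with and without them. In each group the counts of the replicates lay further apart than sampling noise, with a chi-square per degree of freedom of 458 (grr1-deficient, 4 h), 165 (grr1-deficient, 0 h), 6.04 (WT, 4 h) and 19.2 (WT, 0 h). The series text calls them biological replicates and says no more of their origin, so p-values measure the spread between these samples.

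The 8 protein genes together took 309315 and 3 reads in grr1-deficient cells at 4 h and 230401 and 43 reads in grr1-deficient cells at 0 h. The WT libraries held 117440 and 128852 such reads after 4 h, against 66026 and 60514 such reads at 0 h. As a share of gene reads this was 3.79% in grr1-deficient replicate 1 at 4 h and 2.79% at 0 h, and 2.42e-05% in replicate 2 at 4 h and 0.000880% at 0 h. The WT shares were 1.40% and 1.45% after 4 h, against 0.545% and 0.501% at 0 h. With TMM scaling, which sets libraries to a common level over most genes, the sum in grr1-deficient replicate 1 was 3.17 times the WT mean at 4 h and 4.41 times the WT mean at 0 h. With total gene reads as the scale these ratios were 2.66 and 5.34. Replicate 2 of the same genotype lay below both WT libraries for each of the 8 genes at both times, under both scalings, and replicate 1 lay above both. In bulk samples, fewer cells with these transcripts and less of them per cell cannot be told apart.

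**Figure D1:**
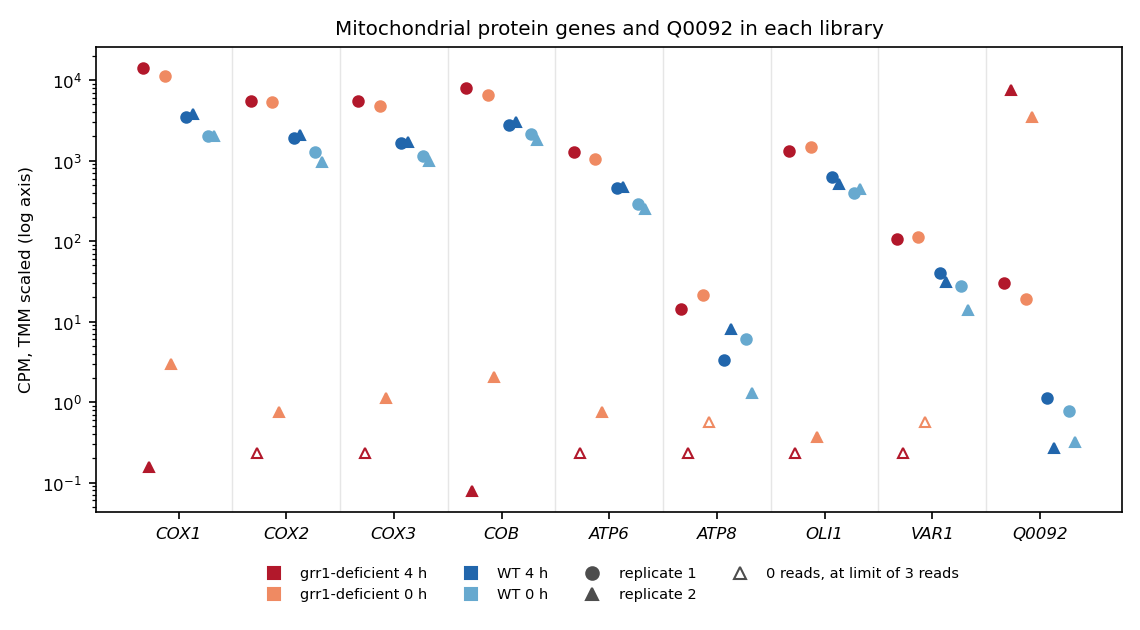
Level of each member in each of the 8 libraries, in TMM-scaled CPM on a log axis, with colours for the groups, circles for replicate 1 and triangles for replicate 2. Open triangles mark 0 reads and stand at the level of 3 reads in that library. In the 8 protein genes the grr1-deficient circles lie above the WT points and the grr1-deficient triangles lie below them, whereas for Q0092 both lie above WT and the triangles are highest.

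COX1 (Q0045) encodes the subunit of cytochrome c oxidase that holds the haem and copper site where oxygen is reduced. It had 14114 CPM (122144 reads) and 2 reads in grr1-deficient cells at 4 h, and 11132 CPM (84039 reads) and 16 reads in grr1-deficient cells at 0 h. In WT cells it had 3458 and 3797 CPM at 4 h and 2039 and 2018 CPM at 0 h. The WT groups did not overlap, and the grr1-deficient replicates lay on opposite sides of them. COX2 (Q0250) encodes the subunit of the same enzyme that takes electrons from cytochrome c. It had 5475 CPM and 0 reads in grr1-deficient cells at 4 h, and 5432 CPM and 4 reads in grr1-deficient cells at 0 h. The WT values were 1906 and 2096 CPM at 4 h and 1284 and 972 CPM at 0 h, again without overlap. COX3 (Q0275), the gene of the third core subunit, had 5461 CPM and 0 reads in grr1-deficient cells at 4 h, and 4830 CPM and 6 reads in grr1-deficient cells at 0 h. In WT cells it had 1660 and 1700 CPM at 4 h and 1127 and 977 CPM at 0 h. The WT groups were separate for this gene too.

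COB (Q0105) encodes cytochrome b, the only subunit of the bc1 complex made in mitochondria. It had 7990 CPM and 1 read in grr1-deficient cells at 4 h, and 6471 CPM and 11 reads in grr1-deficient cells at 0 h. WT cells held 2799 and 3000 CPM at 4 h and 2164 and 1832 CPM at 0 h. The order of the libraries was that of COX1, with a smaller gap between the WT times.

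ATP6 (Q0085) encodes a subunit of the proton channel of ATP synthase. It had 1274 CPM and 0 reads in grr1-deficient cells at 4 h, and 1043 CPM and 4 reads in grr1-deficient cells at 0 h. In WT cells it had 452 and 467 CPM at 4 h and 291 and 252 CPM at 0 h, with no overlap. OLI1 (Q0130) encodes Atp9, the subunit of the rotating ring. It had 1305 CPM and 0 reads in grr1-deficient cells at 4 h, and 1477 CPM and 2 reads in grr1-deficient cells at 0 h. The WT libraries held 629 and 507 CPM at 4 h and 399 and 445 CPM at 0 h. The WT groups stood closer here than for the oxidase genes. ATP8 (Q0080), a short gene for a membrane subunit, had 14.4 CPM (125 reads) and 0 reads in grr1-deficient cells at 4 h, and 21.3 CPM (161 reads) and 0 reads in grr1-deficient cells at 0 h. WT cells held 3.36 and 8.11 CPM at 4 h and 6.002 and 1.29 CPM at 0 h. These 4 WT values came from 36, 90, 54 and 12 reads, and the groups overlapped.

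VAR1 (Q0140), the gene for a protein of the mitochondrial ribosome, had 108 CPM and 0 reads in grr1-deficient cells at 4 h, and 113 CPM and 0 reads in grr1-deficient cells at 0 h. The WT values were 39.9 and 31.2 CPM at 4 h and 27.9 and 13.8 CPM at 0 h. The groups did not overlap, but the WT replicates at 0 h were further apart, in proportion, than those of the other protein genes except ATP8.

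Q0092 ran the other way between the grr1-deficient replicates. It had 258 and 94706 reads in grr1-deficient cells at 4 h, or 29.8 and 7461 CPM, and 144 and 18668 reads in grr1-deficient cells at 0 h, or 19.1 and 3485 CPM. In WT cells it had 12 and 3 reads at 4 h, or 1.12 and 0.270 CPM, and 7 and 3 reads at 0 h, or 0.778 and 0.323 CPM. Both grr1-deficient replicates were above WT, and replicate 2 exceeded replicate 1 by 250-fold at 4 h (95% counting interval 222 to 284) and by 183-fold at 0 h (155 to 217). Replicate 1 was 43.4 times the WT level at 4 h (25.8 to 78.7) and 34.9 times at 0 h (18.4 to 74.3). For replicate 2 these ratios were 10860 and 6376. Q0092 took 0.765% of all gene reads in replicate 2 at 4 h and 0.382% at 0 h, and its RPKM (the authors' reads per kilobase, scaled to library size) was the highest of any gene region in both libraries, at 42464 and 23949. In replicate 1 it ranked 558 by RPKM at 4 h and 951 at 0 h, and in WT between 5163 and 5717. Intervals of this kind cover counting error only.

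Within grr1-deficient replicate 2, the few reads of the 8 protein genes and the many of Q0092 moved apart between the times. The 8 genes held 3 reads at 4 h against 43 at 0 h, a TMM-scaled ratio of 0.0294 (95% counting interval 0.00584 to 0.0920), while Q0092 was 2.14 times as high at 4 h as at 0 h (2.11 to 2.18). In replicate 1 Q0092 was 1.56 times as high at 4 h as at 0 h (1.27 to 1.93), and the 8 genes together 1.17 times. In WT, Q0092 at 4 h was 1.26 times its level at 0 h (0.528 to 3.13), from 15 reads against 10, so a difference was not detectable at this depth. Of the other 19 mitochondrial reading frames in the files, replicate 2 had reads in 5 at 4 h and in 10 at 0 h, replicate 1 in 18 at each time and the WT libraries in 15 to 17. Q0010, an unnamed frame, was the highest of those 19 in replicate 2, with 81 reads at 4 h and 34 at 0 h, against 72 and 81 reads in replicate 1 and 8 to 13 in the WT libraries. Its level in replicate 2 was 6.38 and 6.35 CPM, above all 4 WT libraries, which held 0.746 to 1.45 CPM.

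Per length, the members fell into tiers that were much the same in each library other than those of grr1-deficient replicate 2. In WT cells at 4 h the authors' RPKM values were 3168 ± 163 for COX2, 2948 ± 149 for COX1, 2923 ± 97.1 for COB, 2873 ± 480 for OLI1 and 2421 ± 2.82 for COX3 (mean ± SD, n = 2). Neighbours among the first 4 overlapped, and COX3 was below all 4. ATP6 followed at 688 ± 4.71, ATP8 at 45.3 ± 26.0, VAR1 at 34.7 ± 6.57 and Q0092 at 5.79 ± 5.06. ATP8 and VAR1 did not differ beyond their spread. In WT cells at 0 h the order was OLI1 (1305 ± 130), COB (1230 ± 115), COX2 (1090 ± 187), COX1 (1008 ± 16.9) and COX3 (926 ± 71.5). Each of these overlapped the next except COX1 and COX3. ATP6 then had 248 ± 19.6, ATP8 17.5 ± 15.8, VAR1 12.4 ± 5.66 and Q0092 2.77 ± 1.56, and ATP8 again overlapped VAR1. In grr1-deficient replicate 1 COX1 was highest at both times, at 9381 RPKM at 4 h and 6611 at 0 h, and VAR1 lowest, at 85.8 and 80.2. Q0092 stood at 202 RPKM there at 4 h, above ATP8 at 93.8, and at 115 at 0 h, below ATP8 at 124.

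**Figure D2:**
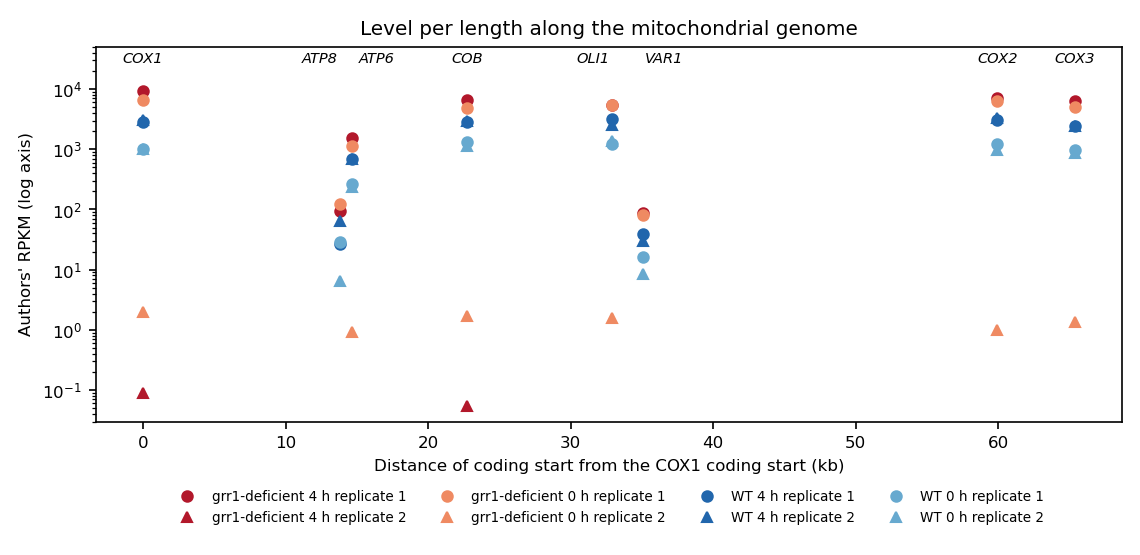
The authors' RPKM, on a log axis, of the 8 protein genes in each library, placed by the distance in kilobases of each coding start from that of COX1. Circles are replicate 1 and triangles replicate 2, and genes with 0 reads are not drawn. ATP8 and VAR1 lie well below their neighbours on the genome in every library except grr1-deficient replicate 2, where they had 0 reads.

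The low level of ATP8 stood beside a high one: ATP8 and ATP6 follow each other on the genome, yet reads per kilobase of ATP8 were between 0.0272 and 0.109 of those of ATP6 in the 6 libraries other than those of grr1-deficient replicate 2, where ATP8 had 0 reads. ATP8 spans 147 bases, and each read was counted 25 nt from its 5′ end, so its reads come from few positions. VAR1, with 1197 bases, is not short. Of the 8 protein genes, the 2 lowest were also the 2 with the least G+C in all 6 libraries. The 5 with G+C of 26.7% or more were the 5 highest there. This is a description over 8 genes of shared libraries, and the part of base composition in these levels was not tested.

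**Figure D3:**
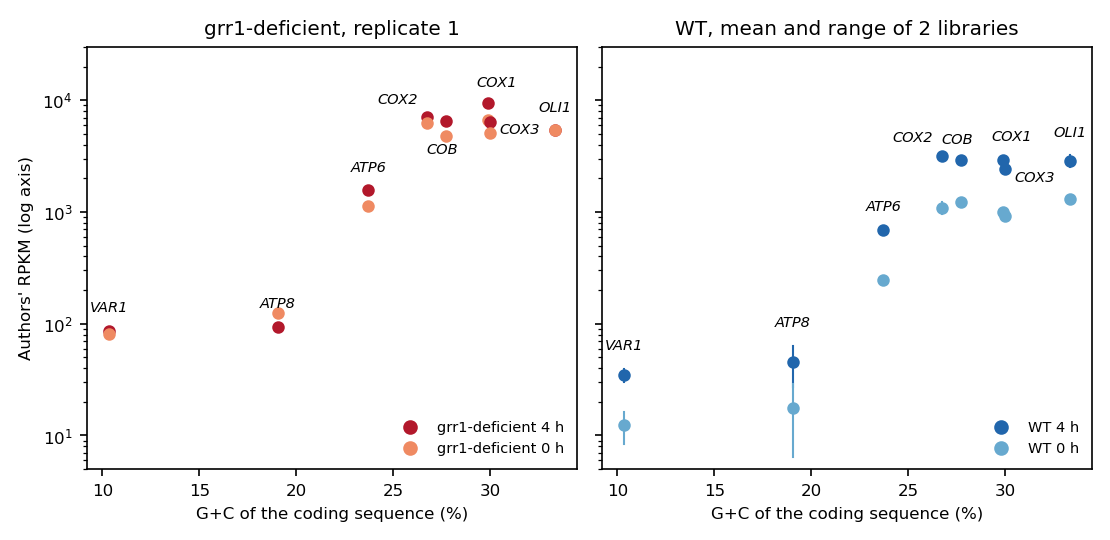
The authors' RPKM, on a log axis, against the G+C percentage of each coding sequence, in grr1-deficient replicate 1 at both times (left) and in WT (right, mean with the range of 2 libraries as a line). VAR1 (10.4%) and ATP8 (19.0%) lie lowest, ATP6 (23.7%) between, and the genes from COX2 (26.7%) to OLI1 (33.3%) highest.

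WT cells after 4 h in tunicamycin held more of most mitochondrial transcripts than at 0 h. The sum of the 8 genes was 10948 and 11605 CPM at 4 h against 7339 and 6510 CPM at 0 h, a ratio of 1.63. Of the 8 members tested, 6 were higher at 4 h in edgeR's quasi-likelihood test on the 4 WT libraries (Benjamini-Hochberg adjusted over 5795 genes, threshold 0.05), while 41.0% of all genes tested were higher. Their log2 changes were 0.83 ± 0.094 for COX1 (SE, edgeR adjusted p = 2.3e-06), 0.82 ± 0.12 for COX2 (5.3e-05), 0.76 ± 0.088 for ATP6 (3.3e-06) and 0.67 ± 0.099 for COX3 (3.1e-05). COB changed by 0.53 ± 0.10 (edgeR adjusted p = 0.00030) and OLI1 by 0.42 ± 0.12 (0.0049). VAR1 had a log2 change of 0.77 ± 0.32 (0.071) and ATP8 of 0.67 ± 0.71 (0.42), and neither passed. Q0092 was removed by the filter on low counts. The median over the 8 genes was 0.71, against 0.03 over all genes tested.

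The OLI1 call was lost without WT 4 h replicate 1, with a log2 change of 0.25 (edgeR adjusted p = 0.0822; range over its alternatives 4.2e-06 to 0.925). When all 8 libraries shared 1 spread, 0 of the 9 members passed in edgeR, with an unadjusted p under 0.05 in 0 of them, while 65.6% of all genes tested passed. The 8 genes had log2 changes of 0.43 to 0.84 in that fit, and DESeq2 on the WT libraries passed the 6 genes named above. With total gene reads as the scale the median of all genes was 0.78 higher at 4 h, and the 8 genes had log2 changes of 1.17 to 1.58.

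In the authors' deposited table for WT, 8 of the 9 members were listed and 6 had an adjusted p below 0.05. The log2 changes in the authors' deposited table were 0.82 for COX1, 0.81 for COX2, 0.74 for ATP6, 0.66 for COX3, 0.52 for COB and 0.42 for OLI1. Of the 9 members, the authors' deposited table for grr1-deficient cells listed Q0092 only, with a log2 change of 1.11, a standard error of 2.98 and an adjusted p of 0.813.

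Between genotypes, the 2 grr1-deficient replicates differed so much that no member passed in the fit on all 8 libraries. At 4 h 0 of 9 passed in edgeR (31.4% of all genes tested passed), and at 0 h 0 of 9 (49.7%), with 0 members at an unadjusted p under 0.05 in either. Standard errors ran from 2.19 to 4.66 log2 at 4 h and from 2.29 to 4.59 at 0 h. Q0092 had log2 changes of 12.38 ± 4.66 at 4 h (edgeR adjusted p = 0.118) and 11.61 ± 4.59 at 0 h (0.105). It was the 1 member that DESeq2 passed at each time, where 29.3% (4 h) and 46.3% (0 h) of genes tested passed. The size of these changes rests on replicate 2, with 94706 and 18668 reads against 258 and 144 in replicate 1. With 3 to 12 reads in WT, Q0092 entered the test only through the grr1-deficient libraries.

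Leaving out both libraries of grr1-deficient replicate 2, the remaining grr1-deficient library at each time was above WT in every member by effect size. The values came from edgeR on these 6 libraries (5875 genes tested), with 1 grr1-deficient library at each time. The log2 changes at 4 h were 1.96 ± 0.14 for COX1, 1.70 ± 0.14 for COX3, 1.60 ± 0.33 for VAR1, 1.47 ± 0.13 for ATP6, 1.46 ± 0.15 for COB, 1.45 ± 0.16 for COX2 and 1.20 ± 0.14 for OLI1. VAR1 had the largest adjusted p of these 7 (edgeR, 0.0133). ATP8 had 1.32 ± 0.68 and did not pass (0.179). Q0092 was higher by 5.41 ± 0.33 log2, from 258 reads against 12 and 3 in WT. The filter on low counts removed it from the WT libraries taken alone.

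At 0 h all 9 members were also above WT by effect size in the same fit. The protein genes had log2 changes of 2.54 ± 0.71 for ATP8 (edgeR adjusted p = 0.0279), 2.44 ± 0.14 for COX1, 2.43 ± 0.36 for VAR1 (0.0023), 2.26 ± 0.16 for COX2 and 2.19 ± 0.14 for COX3. ATP6 had 1.93 ± 0.13, OLI1 1.80 ± 0.14 and COB 1.68 ± 0.15, each with an edgeR adjusted p of 1.02e-09 or less. Q0092 was higher by 5.08 ± 0.39 log2, from 144 reads against 7 and 3 in WT. Here 1 library stands for grr1-deficient cells at each time and is assumed to vary like the WT libraries, so these values compare that replicate with WT, and the genotype cannot be told apart from the replicate. The direction in this replicate was the same for all 9 members with total gene reads as the scale.

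**Figure D4:**
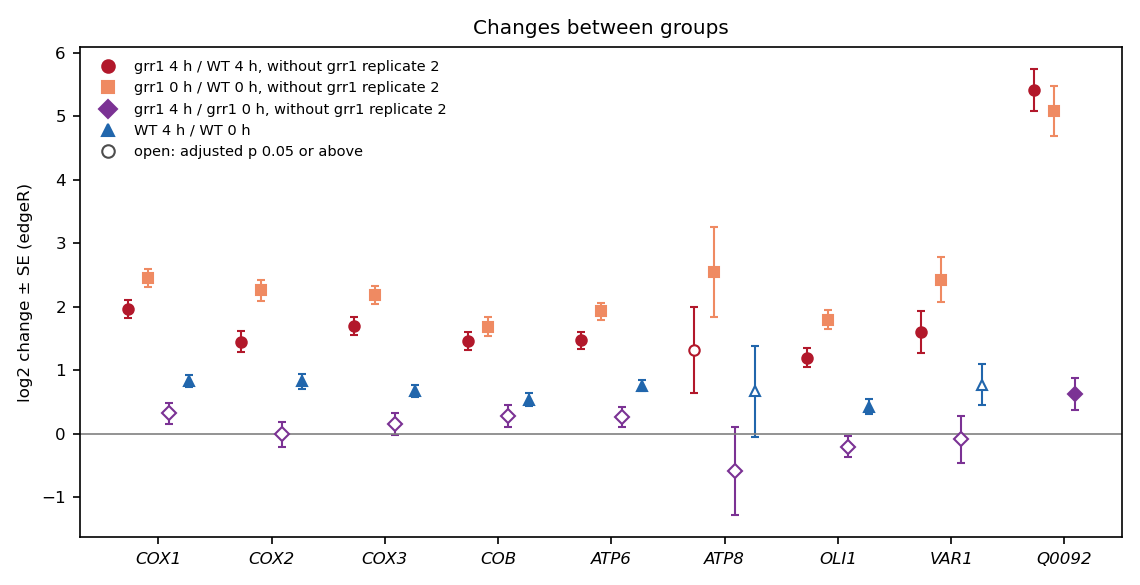
The log2 change of each member with its standard error in 4 comparisons by edgeR, filled where the adjusted p was under 0.05. Red circles (4 h) and orange squares (0 h) are grr1-deficient cells against WT, purple diamonds grr1-deficient cells at 4 h against 0 h, all 3 without grr1-deficient replicate 2, and blue triangles WT at 4 h against 0 h. Q0092 stands above 5 in both comparisons of genotypes, and no blue triangle is drawn for it because it was not tested in WT.

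In grr1-deficient cells, 0 of 9 members passed at 4 h against 0 h in the fit on all 8 libraries (edgeR, 46.0% of all genes tested passed), with 0 at an unadjusted p under 0.05 and 0 in DESeq2. Without replicate 2, 1 of 9 passed while 57.7% of all genes tested did. That member was Q0092, higher by 0.62 ± 0.25 log2, from 258 reads at 4 h against 144 reads at 0 h. Each time is 1 grr1-deficient library, assumed to vary like the WT libraries, where Q0092 had 3 to 12 reads. The call and the standard errors of this fit thus hold no spread between grr1-deficient samples. The 8 protein genes had log2 changes from -0.59 ± 0.70 for ATP8 to 0.32 ± 0.17 for COX1, with a median of 0.07. With total gene reads as the scale, 7 of these 8 genes were above their 0 h level in replicate 1, and with TMM scaling 5 of the 8.

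The test of the difference between the 2 responses (grr1-deficient minus WT) passed for 0 of 9 members in the fit on all 8 libraries (edgeR, 37.3% of all genes tested passed), with 0 at an unadjusted p under 0.05 and 0 in DESeq2. Without grr1-deficient replicate 2, 2 of 9 passed while 48.6% of all genes tested did. These were COX2, at -0.81 ± 0.23 log2, and OLI1, at -0.60 ± 0.21. The grr1-deficient response is here 1 library against 1 library, so calls and standard errors hold no spread between grr1-deficient samples. COX1 had -0.49 ± 0.21, ATP6 -0.46 ± 0.20 and COX3 -0.49 ± 0.21. COB had -0.22 ± 0.22, VAR1 -0.83 ± 0.50 and ATP8 -1.22 ± 1.00. Q0092, at 0.33 ± 0.75, was the 1 member of the other sign. With a block by genotype and number on all 8 libraries, 1 of 9 members passed, while 43.7% of all genes tested did. That member was VAR1 (edgeR adjusted p = 0.042), which had 0 reads in both libraries of grr1-deficient replicate 2.

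The make-up of the reads within the 8 genes was also compared between the times in WT. COX1 made up 32.2% ± 0.80 of them at 4 h and 29.4% ± 2.27 at 0 h (mean ± SD, n = 2), and COB 25.7% ± 0.20 at 4 h and 28.8% ± 0.95 at 0 h. For both genes the WT groups did not overlap, and neither did they for ATP6, at 4.08% ± 0.077 against 3.92% ± 0.073. For COX2, COX3, ATP8, OLI1 and VAR1 they overlapped. In grr1-deficient replicate 1 COX1 made up 39.5% at 4 h (exact 95% interval 39.3 to 39.7) and 36.5% at 0 h (36.3 to 36.7), above all 4 WT libraries, and COB 22.4% and 21.2%, below all 4. With 2 libraries per group an exact two-sided permutation test of a share cannot go below p = 0.333, and counting intervals do not cover the spread between samples. Separate WT groups in a share therefore do not show a change with time, and shares of a sum depend on each other.

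**Figure D5:**
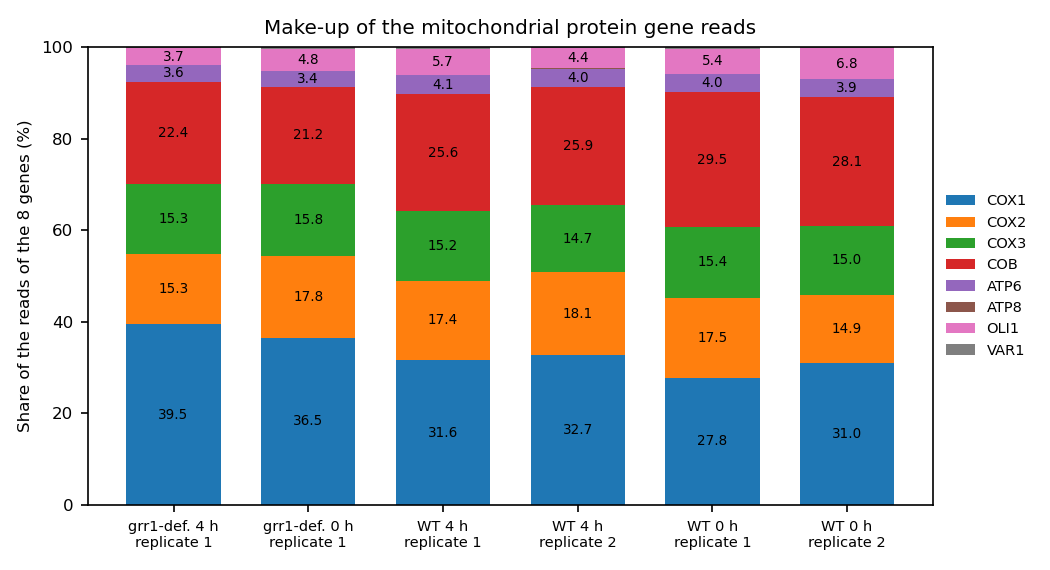
Share of each gene, in percent, of the summed reads of the 8 protein genes, in 6 libraries. The 2 libraries of grr1-deficient replicate 2 are left out because they hold 3 and 43 such reads. The COX1 share is highest in the 2 grr1-deficient libraries (39.5% and 36.5%), and the COB share highest in WT at 0 h (29.5% and 28.1%).

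The first intron of COX1 holds the AI1 reading frame, whose row has 2336 countable bases, the number of its bases outside the COX1 coding segments. Its reads per kilobase, divided by those of the COX1 row, were 1.08 in grr1-deficient replicate 1 at 4 h and 1.69 at 0 h. In WT cells this ratio was 1.40 and 1.47 at 4 h and 1.83 and 1.65 at 0 h. It was lower at 4 h than at 0 h in grr1-deficient replicate 1 and in WT, where the groups did not overlap. In grr1-deficient replicate 2 it was 1.23 at 4 h and 1.15 at 0 h, from 4 and 30 reads of AI1 and 2 and 16 reads of COX1. The COX1 row covers 1436 of 1605 coding bases. Of the other reading frames tested in WT, 10 of 14 were higher at 4 h and 1 was lower in edgeR. Among all genes tested in WT, 41.0% were higher and 39.4% lower. The lower frame was SCEI, the intron endonuclease frame of the large ribosomal RNA gene, at -0.25 ± 0.10 log2 (edgeR adjusted p = 0.0388). In the fit on all 8 libraries 1 of the 15 frames tested, Q0010, was higher in grr1-deficient cells than in WT at each time. Of all genes tested, 17.2% were higher at 4 h and 22.5% at 0 h. Without grr1-deficient replicate 2 the median log2 change of the frames was 1.97 at 4 h and 2.58 at 0 h. Those values rest on 1 grr1-deficient library per time, and several frames share bases with COX1 or COB.

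By the distance between log2 CPM profiles over the 8 libraries, the tested genes most like the mean of the 8 were AI5_ALPHA (root mean square distance 0.36), AI3 (0.52), AI5_BETA (0.60), AI4 (0.60) and SCEI (0.66). AI3, AI4 and AI5_ALPHA share coding bases with COX1. The nearest nuclear gene was MUP1, a methionine permease gene, at 4.11, while the median over all tested genes was 4.99. The profiles nearest to Q0092 were those of HXT13 (2.26), MAN2 (3.29), DSF1 (3.31), YOR231C-A (3.49) and MAL12 (3.501), and the median was 5.54. HXT13, a gene of the hexose transporter family, stood 6.57 and 6.001 log2 above its own median over libraries in grr1-deficient replicate 2 at 4 h and 0 h, and 0.88 and 1.44 above it in replicate 1. MAN2 and DSF1, which encode mannitol dehydrogenases, are near-identical copies, and the sources used here do not say how reads were divided between such copies.

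Nuclear subunits of the same complexes, from lists fixed by name, were mostly higher at 4 h than at 0 h in WT. For cytochrome c oxidase, 7 of 9 subunits were higher and 0 lower, with a median log2 change of 0.48, and COX5B (0.85 ± 0.095) and COX13 (0.71 ± 0.086) led. For the bc1 complex 7 of 8 tested were higher and 0 lower, with a median of 0.66, and QCR10 (1.41 ± 0.10) and QCR8 (1.30 ± 0.083) led. For ATP synthase 11 of 13 were higher and 0 lower, with a median of 0.42, and ATP15 (1.15 ± 0.10) and ATP7 (1.12 ± 0.087) led. Over all genes tested 41.0% were higher, 39.4% were lower and the median was 0.03.

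Between genotypes at 0 h, the calls for those subunits turned on grr1-deficient replicate 2. In the fit on all 8 libraries 0 oxidase, 0 bc1 and 1 ATP synthase subunit (ATP7, 2.06 ± 0.59 log2, edgeR adjusted p = 0.0302) were higher than in WT, with 0, 0 and 1 at an unadjusted p under 0.05 and 2, 1 and 4 passing in DESeq2. Without replicate 2, 8 of 9 oxidase subunits were higher and 1 was lower, with a median of 1.64, led by COX12 (1.98 ± 0.11). All 8 bc1 subunits tested were higher (median 1.79), led by QCR10 (2.33 ± 0.12), and so were all 13 ATP synthase subunits (median 1.64), led by ATP7 (2.65 ± 0.13). Over all genes tested 27.4% were higher and 33.1% lower in that fit.

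At 4 h against WT, 0 of these subunits passed in the fit on all 8 libraries (edgeR), with 0 at an unadjusted p under 0.05 and 0 in DESeq2, and the medians were -0.28 (oxidase), -0.49 (bc1) and -0.32 (ATP synthase). Without replicate 2, 3 oxidase subunits were higher and 1 lower, 1 bc1 subunit was higher and 2 lower, and 5 ATP synthase subunits were higher, while 24.5% of all genes tested were higher and 22.2% lower. The medians were then 0.15, -0.01 and 0.17, so those of oxidase and ATP synthase turned with replicate 2, against 1.46 for the 8 mitochondrial genes without it.

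In grr1-deficient cells at 4 h against 0 h, 0 of the 9 oxidase, 8 bc1 and 13 ATP synthase subunits passed in the fit on all 8 libraries (edgeR), with 0, 0 and 1 at an unadjusted p under 0.05 and 0, 1 and 2 passing in DESeq2. The medians there were -0.84, -0.98 and -0.87. Without replicate 2, 8 of 9 oxidase, 8 of 8 bc1 and 12 of 13 ATP synthase subunits were lower and 1 oxidase subunit was higher, while 30.6% of all genes tested were lower and 27.05% higher. The medians were -1.01, -1.12 and -0.997, against 0.07 for the mitochondrial genes. All values without replicate 2 rest on 1 grr1-deficient library at each time.

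In WT at 4 h against 0 h, factors that act on the mitochondrial genome and its RNA moved less uniformly than those subunits. Of 10 genes for mitochondrial DNA upkeep and transcription, 2 were higher and 6 lower at 4 h in WT, with a median of -0.25, where 41.0% of all genes tested were higher and 39.4% lower. PIF1 was lower at -0.78 ± 0.095 log2. ABF2, which packs the DNA, was higher by 0.69 ± 0.078 log2, and MTF1, the partner of the RNA polymerase, was lower at -0.58 ± 0.11. RPO41, the polymerase itself, was higher in grr1-deficient cells than in WT at 0 h by 1.46 ± 0.22 in the fit on all 8 libraries and by 1.57 ± 0.11 without replicate 2. In those 2 fits 4 of the 10 genes were higher each time, and 1 and 3 were lower. Of all genes tested, 22.5% were higher and 27.2% lower in the fit on all 8 libraries. At 4 h against WT 2 of the 10 were higher and 3 lower in both fits, while 17.2% of all genes were higher and 14.1% lower in the fit on all 8 libraries, so these counts are near the background. Of 14 measured genes for processing, stability and splicing of mitochondrial RNA, 4 were higher and 9 lower at 4 h in WT (median -0.51). SLS1 was lower at -2.12 ± 0.32, and MSS116, an RNA helicase needed for splicing, at -1.68 ± 0.087. In grr1-deficient cells at 0 h 10 of these were higher than in WT and 0 lower in the fit on all 8 libraries, among them RPM2, a subunit of mitochondrial RNase P (2.22 ± 0.54). Their median log2 change was 0.88 in that fit and 0.67 without replicate 2, which leaves 1 grr1-deficient library. Of these 14, 8 were lower and 0 higher at 4 h against 0 h in grr1-deficient cells, in the fit on all 8 libraries. The median there was -0.64, and of all genes tested 24.5% were lower and 21.5% higher.

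Of 17 translational activators, which bind or act on single mitochondrial mRNAs, 4 were higher and 5 lower at 4 h in WT, with a median of -0.08, which is fewer in each direction than the share of all genes (41.0% and 39.4%). CBP1, which stabilises COB mRNA, was lower at -0.87 ± 0.10, and MSS51, an activator of COX1 mRNA translation, was lower at -0.71 ± 0.13. AEP3 was higher by 0.86 ± 0.12. In grr1-deficient cells at 0 h 12 of the 17 were higher than in WT and 1 lower in the fit on all 8 libraries. Of all genes tested, 22.5% were higher and 27.2% lower there. Their median log2 change was 0.66 in that fit and 0.68 without replicate 2, which leaves 1 grr1-deficient library. PET494, an activator of COX3 mRNA, was higher by 1.03 ± 0.14 in the fit on all 8 libraries and by 1.02 ± 0.14 without replicate 2. At 4 h against 0 h in grr1-deficient cells 11 of the 17 were lower and 0 higher in the fit on all 8 libraries, while 24.5% of all genes tested were lower and 21.5% higher. CBP6, which acts with Cbp3 on COB mRNA, was lower there at -1.84 ± 0.24 (edgeR adjusted p = 0.0005).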

How the data were processed

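RNA sequencing of 8 libraries was analysed from the deposited files. These hold raw read counts per gene region, made with plastid's counting program, which, per the file headers, assigned each read of 25 to 100 nt to the base 25 nt in from the 5′ end. They also hold RPKM values, scaled by the authors' program to countable length and to all counted reads. Build R64 and the tools STAR 2.7.3a, Bowtie2 2.3.5, DESeq2 and cutadapt 2.6 stand in the submitters' processing notes. The treatment of strand and of reads with several map positions, and any selection of RNA before sequencing, are not given in the sources used here. The authors' deposited tables for 4 h against 0 h hold log2 changes and p-values, which were used for comparison, and a mean signal and a score per gene, which were not.

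The exon counts went into edgeR 4.0.16 under R 4.3.3 (quasi-likelihood, robust, TMM scaling, default filter, two-sided, Benjamini-Hochberg over all genes tested, threshold 0.05). edgeR added a prior count of 0.125 to fold changes. WT at 4 h against 0 h was fitted on the 4 WT libraries (5795 genes) and the other 4 comparisons on all 8 (5855 genes), with a fit without grr1-deficient replicate 2 (5875 genes) beside them. The script was tested on simulated data. DESeq2 1.42.0 was an alternative, and the others were total counts or nuclear genes as the scale, no filter, coding-region reads, a replicate block and leaving out each library. CPM values are TMM scaled. Depth ran from 4885844 to 12380049 gene reads, and intervals cover counting error only, because reads carry no molecular identifiers.

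The members, gene lists and tests were chosen with earlier results of these data known. All 9 members are named in every comparison, with the 5 genes of nearest profile (log2 CPM with a prior count of 2, centred on each gene's median). Genes named from a list were among the 4 that passed with the largest changes in that comparison, and not all of those are named. The lists held nuclear genes for oxidase, bc1 complex and ATP synthase subunits, for upkeep and transcription of mitochondrial DNA, for mitochondrial RNA processing (14 of 15 names found) and for translational activation.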

Additional observations from a re-analysis of the deposited data

How the results depend on the processing

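In WT at 4 h against 0 h, each library was left out in turn, which leaves 1 library in a group. The median log2 change of the 8 protein genes was 0.73 without WT 4 h replicate 1 and 0.70 without WT 4 h replicate 2. It was 0.84 without WT 0 h replicate 1 and 0.51 without WT 0 h replicate 2. ATP8 ranged from -0.10 to 2.13 in log2 change over these. On the 4 WT libraries 6 of 8 members passed, while 80.4% of all genes tested did. The replicate block moved this count to 7, with VAR1 at 0.81, while 80.7% of all genes tested passed. The fit on all 8 libraries passed 0, while 65.6% of all genes tested passed. In the comparisons with grr1-deficient cells 0 members passed in the fit on all 8 libraries, and 0 passed when any single library was left out. Leaving out both libraries of grr1-deficient replicate 2 gave 8 (4 h against WT), 9 (0 h against WT), 1 (4 h against 0 h) and 2 (difference of responses). DESeq2 gave 1 (Q0092) against WT at each time, while 29.3% of all genes tested passed at 4 h and 46.3% at 0 h. A block by genotype and number gave 1 of 9 at 4 h against 0 h (Q0092), while 52.0% of all genes tested passed. For the difference of responses it gave 1 of 9 (VAR1, -0.89), while 43.7% of all genes tested passed.

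The direction of the protein genes in these comparisons turned with which grr1-deficient library was left out, because replicate 1 was above WT and replicate 2 below. With libraries left out in turn, log2 changes ran at 4 h against WT over -14.38 to 1.96 (COX1), -17.20 to 1.45 (COX2), -16.94 to 1.70 (COX3), -14.94 to 1.46 (COB), -15.07 to 1.47 (ATP6), -8.76 to 1.33 (ATP8), -15.38 to 1.20 (OLI1) and -11.38 to 1.59 (VAR1). At 0 h against WT they ran over -9.43 to 2.45 (COX1), -10.56 to 2.27 (COX2), -9.88 to 2.20 (COX3), -9.94 to 1.69 (COB), -8.51 to 1.94 (ATP6), -8.15 to 3.08 (ATP8), -10.12 to 1.80 (OLI1) and -10.66 to 2.43 (VAR1). At 4 h against 0 h in grr1-deficient cells they ran over -15.00 to 11.19 (COX1), -17.64 to 11.80 (COX2), -17.47 to 11.22 (COX3), -15.11 to 10.90 (COB), -15.26 to 9.70 (ATP6), -9.71 to 9.02 (ATP8), -15.76 to 10.71 (OLI1), -12.08 to 11.97 (VAR1) and -5.89 to 7.61 (Q0092). For the difference of responses they ran over -15.83 to 10.38 (COX1), -18.46 to 11.01 (COX2), -18.14 to 10.58 (COX3), -15.64 to 10.40 (COB), -16.02 to 8.97 (ATP6), -10.37 to 8.40 (ATP8), -16.19 to 10.31 (OLI1), -12.85 to 11.23 (VAR1) and -6.18 to 7.29 (Q0092). The far ends are fitted against libraries at or near 0 reads and are no bounds.

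To check the pairing, the difference in log2 CPM of replicate 1 minus replicate 2 was correlated between groups over 5831 nuclear genes. These differences correlated at 0.460 between the grr1-deficient groups, at 0.0035 between the WT groups and at -0.0487 to 0.117 across genotypes. The numbers were thus not shown to pair the WT samples, whereas same-numbered grr1-deficient samples deviated together. The sources used here do not say whether a number marks 1 culture. At 4 h against 0 h in grr1-deficient cells, a block by genotype and number gave standard errors of 0.23 to 1.07 log2. Without a block they ran from 2.17 to 3.99. With the replicate block, at 4 h against WT, COX1 turned to -4.29, COX2 to -4.87, COX3 to -4.34, COB to -4.62, ATP6 to -3.07, ATP8 to -1.05, OLI1 to -3.51 and VAR1 to -1.03. At 0 h, COX1 turned to -3.69, COX2 to -3.75, COX3 to -3.69, COB to -4.19, ATP6 to -2.41 and OLI1 to -3.09. The replicate block also turned COX2 at 4 h against 0 h to -0.0140 and Q0092 in the difference of responses to -0.0039. The block by genotype and number turned COX1 to -0.35, COX2 to -0.19, COX3 to -0.12 and COB to -0.21 at 4 h against 0 h. COX2 in that comparison, at 0.01 in the fit on all 8 libraries, was also negative with nuclear genes as the scale (-0.0106), with coding-region reads (-0.0104), with DESeq2 (-0.0287) and without replicate 2 (-0.0132). With total counts OLI1 turned to 0.0348 and VAR1 to 0.10 there, OLI1 to -0.0575 at 4 h against WT and Q0092 to -0.0652 in the difference of responses. The causes of these turns beyond the choice of libraries were not tested. In all, 1 replicate per time carries the values for grr1-deficient cells without replicate 2, and ATP8, VAR1 and WT Q0092 rest on few reads.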
